A study of Rattus norvegicus with 9 samples.

Results

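The lysosomal genes described here are 41 genes for the parts of the lysosome: 14 subunits of its proton pump, 2 pump accessory proteins, 6 membrane proteins, the transcription factors Tfeb and Tfe3, 16 hydrolases and hydrolase cofactors, and the autophagy receptor Sqstm1. They were chosen by name, and all 41 were found, each as a single entry, among the 32623 gene identifiers of the deposited tables. Of these members, 40 had enough reads to be tested, among 15321 genes tested in all. RNA was sequenced from 9 libraries of wild-type (WT) rat brain oligodendrocyte progenitor cell (OPC) cultures, kept for 5 days in a differentiation medium that was renewed every 2 days. Bavisant, which blocks the H3 receptor for histamine, was absent from 3 libraries (Basal), given at 1 µM in 3 and at 10 µM in 3. The protocol text gives the lower dose in mM where the sample labels and the design text give µM, and 1 µM is used here. Each group holds a library numbered P11, P13 and P14. The labels do not say what these numbers mark, nor the animals' age or how many animals were pooled. The p-values thus measure the spread between these libraries, which may be technical. In fits that take the P number into account, they measure the spread left after differences between P numbers are removed.

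Oligodendrocyte progenitors mature into oligodendrocytes, the cells that wrap axons in myelin, and myelin lipids are broken down in lysosomes. The lysosome is acidified by the V-ATPase, a rotary pump whose cytosolic V1 part splits ATP and whose membrane V0 part carries protons into the lumen, where acid hydrolases digest lipids, glycans and proteins. TFEB and TFE3 are transcription factors that bind E-box-like elements in the promoters of many lysosomal genes, and calcium released through the channel MCOLN1 is one signal that activates TFEB. In brain, microglia have abundant lysosomes, and CD68 is widely used as their lysosomal marker.

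Promoter sequences are shown because members share an element of the kind that TFEB and TFE3 bind. RefSeq promoters (build GRCr8, 250 bases before to 50 after the gene start) were matched by symbol for 32 of the 41 members. The letters TCACGTGA, which read the same on both strands, occurred in 5 of these 32 windows (15.6%), those of Atp6v0d1, Atp6v0e1, Galc, Lamp1 and Mcoln1. They occurred in 260 of all 33469 RefSeq rat promoters of that length (0.777%), and in 189 of the 12116 promoters of tested genes (1.56%). The shorter core CACGTG, which is contained in TCACGTGA, occurred in 8 of the 32 member windows (25%), in 6.42% of all promoters and in 8.86% of those of tested genes. Cd63, Gaa and Glb1 hold CACGTG alone, and most member windows hold neither motif. These are matches of letters, with no measurement of binding. Whether the motifs go with a difference by dose was not tested. The stretches below run 5′ to 3′ on the gene's own strand, from 100 bases before to 20 bases after the gene start, and capitals mark TCACGTGA or CACGTG. The first 4 hold TCACGTGA: Mcoln1 on the + strand at chr12:6358158-6358277, Lamp1 on the − strand at chr16:83075044-83075163, Galc on the − strand at chr6:123245540-123245659 and Atp6v0d1 on the − strand at chr19:50357229-50357348. The last 3 belong to members that were lower at 10 µM in the test described below and hold neither motif in their full window: Cd68 on the − strand at chr10:54882422-54882541, Grn on the + strand at chr10:87887734-87887853 and Lipa on the − strand at chr1:241470721-241470840.
Mcoln1: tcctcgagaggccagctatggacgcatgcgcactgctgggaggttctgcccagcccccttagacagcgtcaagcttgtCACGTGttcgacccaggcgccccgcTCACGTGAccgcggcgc
Lamp1: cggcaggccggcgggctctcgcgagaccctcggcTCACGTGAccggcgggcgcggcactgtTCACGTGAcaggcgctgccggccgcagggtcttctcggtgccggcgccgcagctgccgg
Galc: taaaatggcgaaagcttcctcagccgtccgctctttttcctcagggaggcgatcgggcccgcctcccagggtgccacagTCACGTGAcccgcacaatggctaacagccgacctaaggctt
Atp6v0d1: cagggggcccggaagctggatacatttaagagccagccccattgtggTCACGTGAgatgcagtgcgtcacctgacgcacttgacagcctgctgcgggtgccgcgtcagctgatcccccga
Cd68: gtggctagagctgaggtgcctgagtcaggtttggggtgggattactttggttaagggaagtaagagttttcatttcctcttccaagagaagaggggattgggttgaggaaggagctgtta
Grn: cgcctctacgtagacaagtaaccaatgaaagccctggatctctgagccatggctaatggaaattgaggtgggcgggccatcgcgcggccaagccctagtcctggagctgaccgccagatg
Lipa: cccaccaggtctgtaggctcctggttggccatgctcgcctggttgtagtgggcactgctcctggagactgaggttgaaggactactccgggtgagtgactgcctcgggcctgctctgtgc

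All but one of the lysosomal genes were well measured in these cultures. Levels are given first as TPM, a measure scaled for both library size and gene length, so that genes can be compared. Of the 41 members, 22 had a mean of at least 100 TPM over the 9 libraries, 18 lay between 10 and 100, and 1 lay under 1. Together they held 0.799% to 0.868% of the summed TPM of a library. The most abundant was Psap, the precursor of the saposins that help hydrolases reach their sphingolipids, at 1060 ± 67.1 TPM (SD, n = 9). Next were Lamp1, the major glycoprotein of the lysosomal membrane, at 871 ± 64.7 TPM and Atp6v0c, which forms most of the rotating proton-carrying ring, at 849 ± 62.0 TPM. Within the membrane part of the pump, Atp6v0c was followed by Atp6v0d1 (379 TPM), Atp6v0b (265 TPM), Atp6v0e1 (80.1 TPM) and Atp6v0a1 (75.3 TPM). The ranges of the last pair overlapped over the 9 libraries. Atp6v0d2, an isoform of the d subunit known from osteoclasts and macrophages, had 0 to 4 reads per library and was the member not tested. In the V1 part, Atp6v1g1 (457 TPM), Atp6v1f (308 TPM), Atp6v1e1 (244 TPM), Atp6v1d (207 TPM), Atp6v1a (166 TPM) and Atp6v1b2 (126 TPM) stood in that order, with ranges over the 9 libraries that did not overlap between neighbours, whereas Atp6v1c1 (90.6 TPM) and Atp6v1h (85.0 TPM) overlapped. Among the membrane proteins, Lamp1 was followed by the tetraspanin Cd63 (546 TPM). Scarb2, the receptor that carries glucocerebrosidase to the lysosome, and Lamp2, a receptor of chaperone-mediated autophagy, were level at 263 and 262 TPM. Cd68 (76.9 ± 12.1 TPM) and Mcoln1 (57.5 ± 5.36 TPM) overlapped in range. Tfeb stood at 35.1 ± 5.92 TPM and Tfe3 at 22.6 ± 1.38 TPM. Below Psap, the sphingolipid enzymes ranged from acid ceramidase Asah1 (244 TPM) down to the galactosylceramidase Galc (18.0 TPM), the enzyme that degrades the main myelin galactolipid and is lost in Krabbe disease.

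**Figure D1:**
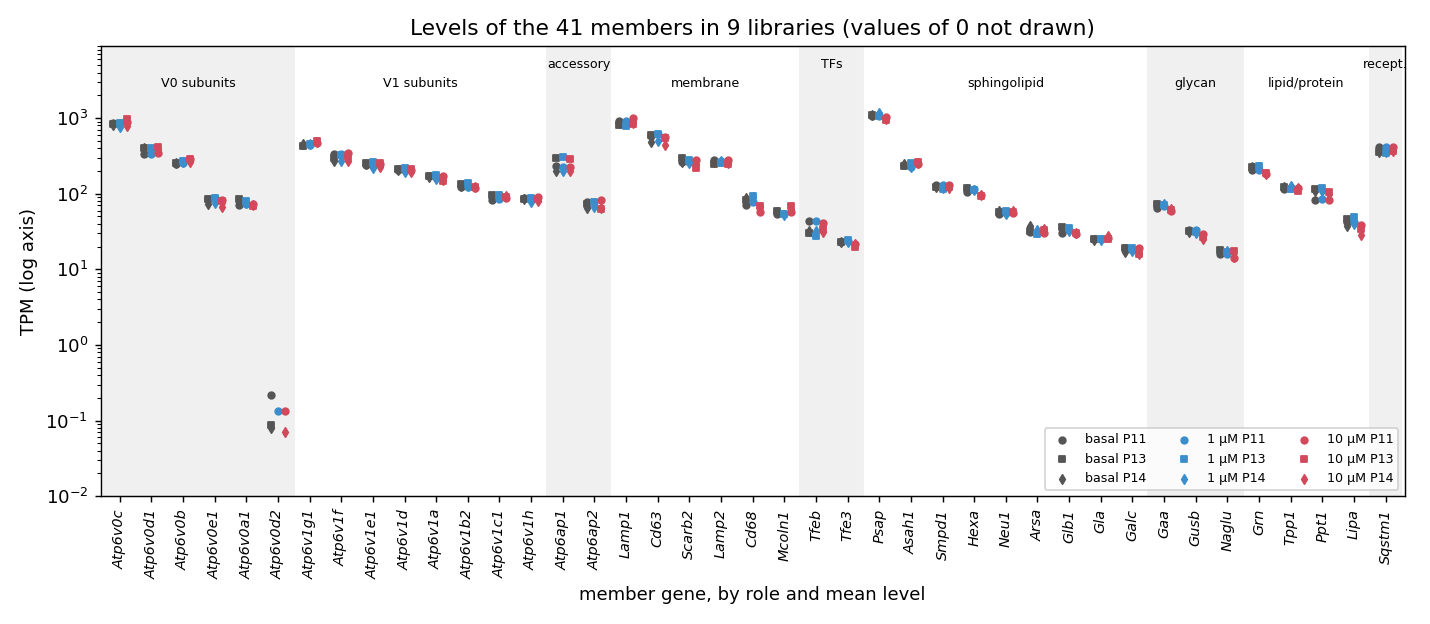
TPM (log axis) of the 41 members in the 9 libraries, grouped by role and ordered by mean; colour is the dose and the marker shape the P number. All members except Atp6v0d2 lie above 10 TPM, and the 9 points of a gene lie close together against the distance between genes.

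Few of these genes passed the adjusted threshold for a difference by dose, and the factors were small. Mcoln1 was higher and Cd68, Grn and Lipa were lower at 10 µM, and in edgeR only in a fit that takes the P number into account. Reads were compared with edgeR's quasi-likelihood test, with Benjamini-Hochberg adjustment over all 15321 genes and a threshold of 0.05. Without regard to the P number, 0 of 40 members passed in each of the 3 comparisons, as did 0% of all genes tested. At an unadjusted p under 0.05, 7 members (17.5%) differed between 10 µM and basal, 0 between 1 µM and basal and 7 (17.5%) between 10 µM and 1 µM. Of all genes, 808 (5.27%), 81 (0.529%) and 717 (4.68%) did so. DESeq2 without the P number called 0, 0 and 1 member, the last being Grn. Libraries with the same P number deviated together, so the fit was repeated with the P number as a block. In that fit Cd68 was lower at 10 µM than in basal cultures, as 1 of 40 members, against 3.96% of all genes called in either direction, of which calls 66.7% were lower. Between 10 µM and 1 µM, 4 of 40 members passed, against 4.30% of all genes, of which calls 69.7% were lower. Mcoln1 was higher there, and Cd68, Grn and Lipa were lower. Both comparisons use the same 10 µM libraries. With the 2 compared groups fitted alone, still with the block, 0 members and 0 genes were called in edgeR, and without the P11 libraries Lipa at 10 µM against 1 µM was the one member called. Against basal, 13 of 40 members (32.5%) had an unadjusted p under 0.05 in the fit with the block, and 22.4% of all genes did. Against 1 µM, 16 of 40 members (40%) and 21.2% of all genes did so. The unadjusted shares of members are descriptive, since the members were chosen with earlier results of these data known. The median log2 fold change of the members was 0.02 at 10 µM against basal, beside −0.01 for all genes. Single members ran from −0.27 to 0.23.

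**Figure D2:**
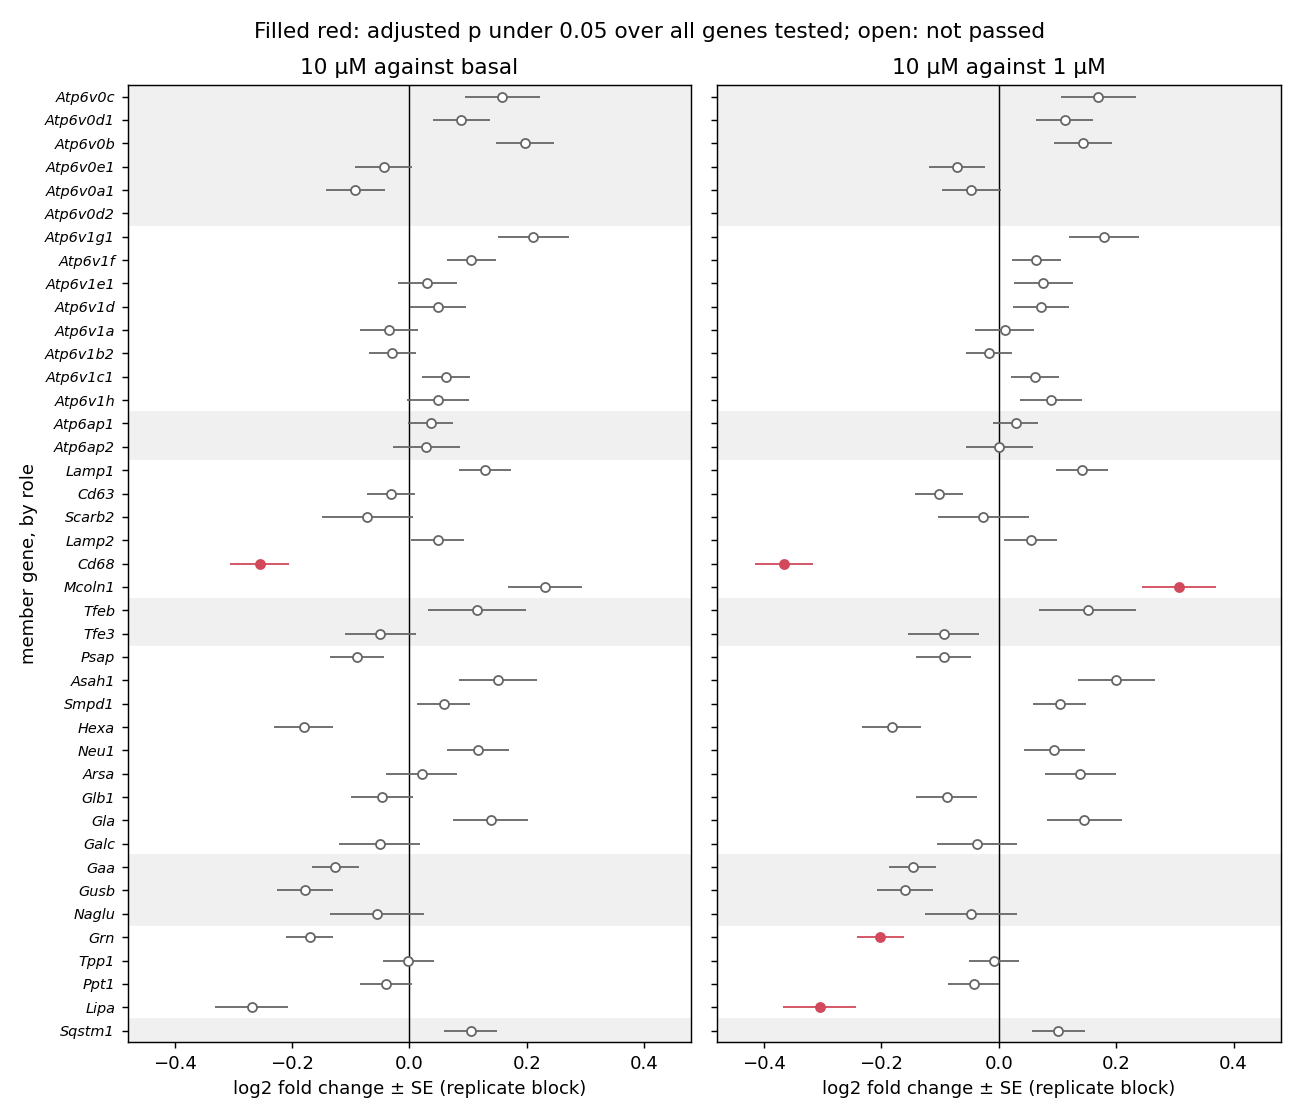
Log2 fold change ± SE of each member tested, from the fit with the P number as a block, at 10 µM against basal (left) and against 1 µM (right). Filled red points passed the adjusted threshold: Cd68 on the left, and Cd68, Mcoln1, Grn and Lipa on the right.

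The groups of libraries overlapped for most of the 40 members tested. In the comparisons of 10 µM, the share of members that separated was above that of all genes in either direction. At 1 µM against basal, 0 members lay above and 0 below, beside 1.48% and 1.44% of all genes. The members were chosen with earlier results of these data known, and all genes include many with fewer reads than any member tested. The shares are therefore descriptive and no test of the list. All 3 libraries at 10 µM lay above all 3 basal ones for 5 members, Atp6v0b, Atp6v1g1, Mcoln1, Neu1 and Gla, where 4.72% of all genes did so. They lay below for 3 members, Hexa, Gaa and Grn, where 4.61% of all genes did so. Against 1 µM, the libraries separated upward for Atp6v1g1, Mcoln1 and Gla, beside 4.14% of all genes. They separated downward for Cd68, Hexa, Gaa and Grn, beside 4.36% of all genes. Within every P number, 16 members were higher and 9 lower at 10 µM than in basal cultures, where 20.5% and 24.3% of all genes were. Against 1 µM, 18 were higher and 11 lower, where 20.5% and 21.9% of all genes were.

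No proton pump subunit passed in edgeR, with or without the block. Against basal, 9 of the 13 subunits tested had a positive log2 fold change at 10 µM with a median of 0.05 when scaled by TMM, 8 with a median of 0.00 when scaled by library totals, and 5 with a median of −0.01 on the TPM scale, so the sign of the group depended on the scaling. With TMM, 47.2% of all genes were positive. The median of all genes moved with the scaling too, at −0.01 with TMM, −0.06 with library totals and −0.07 on the TPM scale. The pump median lay above it under each of these scalings. DESeq2 with the block called Atp6v0b and Atp6v1g1 higher against basal. Further values by library are CPM, read counts scaled by library size and not by length, and are listed in the order P11, P13, P14. Atp6v0b, a second ring subunit, had 130.7, 128.4 and 126.0 CPM in basal cultures, 137.0, 133.4 and 129.7 CPM at 1 µM, and 155.6, 154.1 and 132.8 CPM at 10 µM. The P11 and P13 libraries at 10 µM stood apart from the other 7, and P14 stood just above the basal ones. Its log2 fold change against basal was 0.20 ± 0.05 (SE; adjusted p = 0.0646, edgeR with the block). Atp6v0c had 522.9, 486.7 and 460.6 CPM in basal cultures and 552.1, 616.8 and 476.6 CPM at 10 µM, where the ranges overlapped (log2 fold change 0.16 ± 0.06, edgeR adjusted p = 0.196). Atp6v1g1, a subunit of the stalk that holds the V1 head, had 223.4, 202.0 and 228.4 CPM in basal cultures, 215.0, 221.9 and 231.7 CPM at 1 µM, and 238.0, 265.8 and 252.8 CPM at 10 µM. Every library at 10 µM was above every other library, with a log2 fold change of 0.21 ± 0.06 against basal (edgeR adjusted p = 0.0890). The catalytic subunit Atp6v1a, which holds the ATP-splitting site, had a log2 fold change of −0.04 ± 0.05, and its partner Atp6v1b2 of −0.03 ± 0.04. The channel subunit Atp6v0a1, which forms the path of the protons beside the ring, had the lowest value of the pump, −0.09 ± 0.05.

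The pump accessory proteins differed by P number and not measurably by dose. Atp6ap1, a lumenal accessory subunit needed for assembly, had 303.0, 370.9 and 241.3 CPM in basal cultures, 297.3, 381.4 and 243.0 CPM at 1 µM, and 304.7, 386.7 and 248.2 CPM at 10 µM. P13 was the highest and P14 the lowest at each dose. Its log2 fold change at 10 µM against basal was 0.04 ± 0.04, and that of Atp6ap2, the (pro)renin receptor, was 0.03 ± 0.06.

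Among the membrane proteins, one member was higher at 10 µM, one was lower, and the other 4 did not pass. Mcoln1 (ENSRNOG00000000975), the calcium and cation channel of the lysosome, had 62.1, 65.5 and 61.9 CPM in basal cultures, 63.4, 59.4 and 56.8 CPM at 1 µM, and 69.3, 81.9 and 71.5 CPM at 10 µM. The 3 libraries at 10 µM lay above the other 6. Against 1 µM its log2 fold change was 0.31 ± 0.06, a factor of 1.24 (edgeR with the block, adjusted p = 0.0372), and against basal it was 0.23 ± 0.06 (adjusted p = 0.0819). The call against 1 µM was lost, with the same direction, when reads were scaled by library totals and on the TPM scale. It was also lost in 8 of the 9 fits that left out 1 library. Mcoln1 carries both marked elements in the stretch above. The other 4 members with TCACGTGA had log2 fold changes at 10 µM against 1 µM of 0.14 (Lamp1), 0.11 (Atp6v0d1), −0.04 (Galc) and −0.07 (Atp6v0e1), and none of them passed. The members with CACGTG alone had −0.10 (Cd63), −0.15 (Gaa) and −0.09 (Glb1) in that comparison, and none passed with TMM.

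Cd68 (ENSRNOG00000037563), the heavily glycosylated lysosomal membrane protein of phagocytes, had 46.7, 52.7 and 54.2 CPM in basal cultures, 51.4, 58.0 and 56.4 CPM at 1 µM, and 39.0, 47.1 and 42.7 CPM at 10 µM. Within each P number the 10 µM library was the lowest of the 3, though P13 at 10 µM lay just above P11 in basal cultures. Cd68 fell by 0.26 ± 0.05 on the log2 scale at 10 µM against basal, a factor of 1.19 (edgeR with the block, adjusted p = 0.0341), and was lower by a factor of 1.29 against 1 µM (adjusted p = 0.0160). The call against basal held in 2 of the 9 fits that left out 1 library, those without 1 µM P13 and without 10 µM P13. The call against 1 µM held in 5 of 9, and was lost when any one of the 3 libraries at 1 µM, or 10 µM P14, was left out. In bulk samples such as these, fewer cells of a type and less RNA per cell cannot be told apart. Lamp1 had 1122.7, 961.7 and 1030.6 CPM in basal cultures and 1274.0, 1070.0 and 1065.1 CPM at 10 µM, with overlapping ranges (log2 fold change 0.13 ± 0.04, edgeR adjusted p = 0.141). Lamp2, Cd63 and Scarb2 had log2 fold changes between −0.07 and 0.05 against basal.

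**Figure D3:**
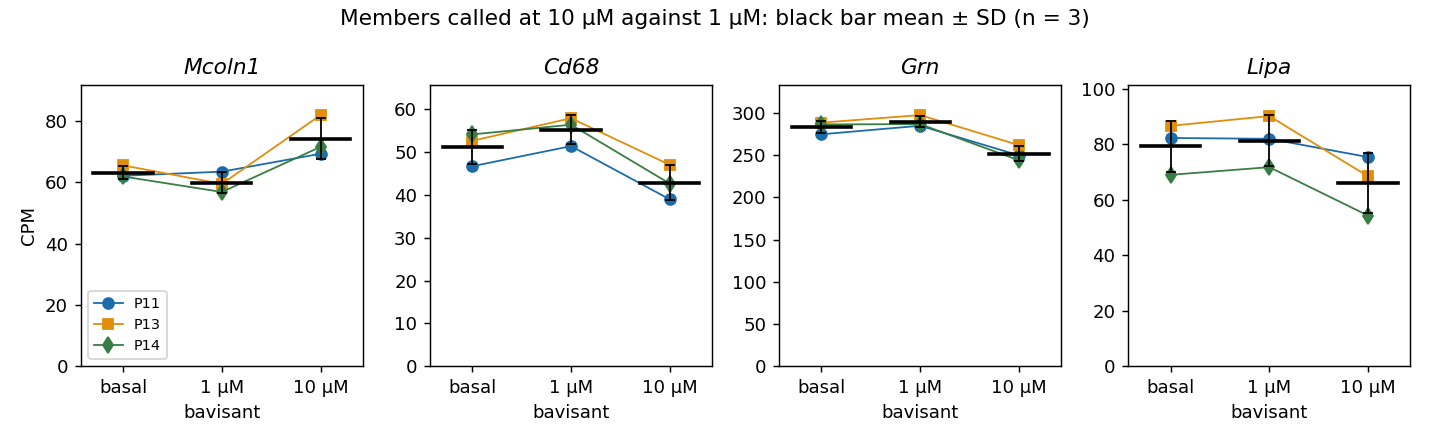
CPM of Mcoln1, Cd68, Grn and Lipa in basal cultures and at 1 µM and 10 µM bavisant, with 1 line per P number and the mean ± SD of each group in black (n = 3). Mcoln1 is highest and the other 3 are lowest at 10 µM within each P number, and the P14 line of Lipa is the lowest at each dose.

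The transcription factors did not pass. Tfeb had 56.0, 37.4 and 39.6 CPM in basal cultures, 56.7, 34.4 and 39.2 CPM at 1 µM, and 56.3, 46.4 and 40.2 CPM at 10 µM. P11 was highest at every dose, and of the pairs within a P number only P13 differed by more than 0.10 between basal and 10 µM on the log2 scale (0.31). The log2 fold change at 10 µM against basal was 0.12 ± 0.08 for Tfeb and −0.05 ± 0.06 for Tfe3. These are transcript levels, and TFEB and TFE3 are regulated mainly through phosphorylation and transport into the nucleus.

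The 16 hydrolases and cofactors divided in sign, 5 positive and 11 negative at 10 µM against basal, with a median of −0.05 (12 negative with library totals and 13 on the TPM scale). Negative values were found for 52.8% of all genes in the comparison with basal. All 5 positive members were sphingolipid enzymes: Asah1, acid ceramidase (0.15 ± 0.07), Gla, which degrades globosides and is lost in Fabry disease (0.14 ± 0.06), Neu1, a sialidase (0.12 ± 0.05), Smpd1, acid sphingomyelinase (0.06 ± 0.05), and Arsa, which desulfates the myelin lipid sulfatide (0.02 ± 0.06). With TMM scaling no sphingolipid member passed in edgeR with the block, with adjusted p-values against basal from 0.0855 (Hexa) to 0.871 (Arsa). With library totals Hexa was called lower at 10 µM against both other groups. Hexa, the α chain of β-hexosaminidase that is lost in Tay-Sachs disease, had 107.9, 117.2 and 109.3 CPM in basal cultures, 117.6, 109.5 and 108.0 CPM at 1 µM, and 101.9, 97.9 and 95.5 CPM at 10 µM. The libraries at 10 µM were the 3 lowest of the 9, with a log2 fold change of −0.18 ± 0.05 against basal (edgeR with the block, adjusted p = 0.0855). Psap had 1627.8, 1600.9 and 1593.9 CPM in basal cultures and 1619.6, 1463.8 and 1453.8 CPM at 10 µM. P13 and P14 at 10 µM lay below the other libraries while P11 did not, and the log2 fold change was −0.09 ± 0.05. Galc, whose substrate is a main lipid of myelin, had a log2 fold change of −0.05 ± 0.07.

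The 3 enzymes of glycogen and glycosaminoglycan breakdown all had negative values at 10 µM under each scaling run, and with TMM none passed. With library totals and the block, Gusb was called lower against basal, and Gaa and Gusb against 1 µM. On the log2(TPM + 1) scale with the block, Gaa and Gusb were called lower against basal, and Gaa against 1 µM. Gaa, the acid α-glucosidase that degrades glycogen, had 135.5, 145.3 and 140.4 CPM in basal cultures, 142.2, 141.5 and 143.3 CPM at 1 µM, and 126.0, 131.0 and 129.0 CPM at 10 µM. All 3 libraries at 10 µM were below the other 6, with a log2 fold change of −0.13 ± 0.04 against basal (edgeR with the block, adjusted p = 0.118). Gusb, β-glucuronidase, had 48.2, 45.0 and 42.7 CPM in basal cultures and 44.4, 40.0 and 36.2 CPM at 10 µM. Within each P number the value at 10 µM was the lower one, while the ranges of the groups overlapped (log2 fold change −0.18 ± 0.05, edgeR adjusted p = 0.0802). Naglu, which removes N-acetylglucosamine from heparan sulfate, had −0.06 ± 0.08.

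Of the enzymes of lipid and protein breakdown and progranulin, 2 of 4 passed at 10 µM against 1 µM. Grn (ENSRNOG00000021031) encodes progranulin, the precursor of the lysosomal granulins. It had 274.8, 288.6 and 286.4 CPM in basal cultures, 284.9, 297.5 and 286.8 CPM at 1 µM, and 249.8, 261.9 and 243.9 CPM at 10 µM. The libraries at 10 µM were below the other 6. Grn was lower at 10 µM than at 1 µM by a factor of 1.15 (log2 fold change −0.20 ± 0.04, edgeR with the block, adjusted p = 0.0346), and had −0.17 ± 0.04 against basal (adjusted p = 0.0565). The call was lost in each of the 9 fits that left out 1 library, where its adjusted p ran from 0.0541 to 0.144 and its direction stayed the same. Lipa (ENSRNOG00000019077), the acid lipase that frees cholesterol and fatty acids from lipids taken up by the cell, had 82.3, 86.7 and 69.0 CPM in basal cultures, 82.0, 90.2 and 71.8 CPM at 1 µM, and 75.4, 68.5 and 54.3 CPM at 10 µM. The 10 µM library was the lowest within each P number, and the groups overlapped, with P14 the lowest library at each dose. Lipa was lower at 10 µM than at 1 µM by a factor of 1.24 (log2 fold change −0.31 ± 0.06, edgeR with the block, adjusted p = 0.0367), and had −0.27 ± 0.06 against basal (adjusted p = 0.0542). The call against 1 µM held in 1 of the 9 fits, the one without 10 µM P11. The peptidase Tpp1 and the depalmitoylating enzyme Ppt1, whose losses cause neuronal ceroid lipofuscinoses, had values of −0.00 ± 0.04 and −0.04 ± 0.04 against basal. Sqstm1, the p62 receptor that delivers ubiquitin-tagged cargo to autophagosomes, had 433.4, 359.3 and 357.9 CPM in basal cultures and 454.6, 407.3 and 373.6 CPM at 10 µM. Each P number was a little higher at 10 µM and the ranges overlapped (log2 fold change 0.10 ± 0.05, edgeR adjusted p = 0.222).

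No member was called at 1 µM against basal with or without the block, and 0% of all genes were. With the block, 0 of 40 members and 582 of all genes (3.80%) had an unadjusted p under 0.05 in edgeR. The lowest member p was 0.0543, and no log2 fold change of a member exceeded 0.12 in size, with standard errors of up to 0.08. DESeq2 called 0 members in this comparison with and without the block. The median of the members was −0.00, as it was for all genes. Cd68 had 0.11 ± 0.05, Mcoln1 −0.08 ± 0.06, Grn 0.03 ± 0.04 and Lipa 0.04 ± 0.06 at 1 µM against basal. The signs of these 4 were opposite to those at 10 µM against the same basal libraries. The 4 were taken because they passed at 10 µM against 1 µM, and such a choice favours opposite signs. The sign of Lipa at 1 µM turned when certain single libraries were left out of the fit without the block. Whether the doses differ is the comparison of 10 µM with 1 µM given above.

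Marker genes of other cell types were present in the cultures. In edgeR some were called at 10 µM in the fit with the block, and none without it or at 1 µM against basal. The OPC label was met by Gpr17, Ptprz1, Pdgfra and Cspg4, at summed levels of 1970 to 3022 CPM over the 9 libraries with none at 0. The oligodendrocyte markers Mbp, Cnp, Mag, Mobp and Mog summed to 27351 to 30160 CPM in basal cultures, 26600 to 31329 CPM at 1 µM and 39326 to 42937 CPM at 10 µM. In the fit with the block, 4 of these 5 were called higher at 10 µM against either other group, as Mcoln1 was against 1 µM. The 12 microglia and macrophage markers were C1qa, C1qb, C1qc, Aif1, Tyrobp, Csf1r, Trem2, Cx3cr1, Itgam, Ptprc, Tmem119 and P2ry12, and none was at 0 in any library. They summed to 557, 786 and 652 CPM in basal cultures, 643, 812 and 765 CPM at 1 µM, and 570, 658 and 552 CPM at 10 µM. At 10 µM against basal, 11 of the 12 had negative values and 1 was called lower (Itgam). Against 1 µM all 12 were negative and 4 were called lower. Cd68, Grn and Lipa, the members that were lower, were set beside these markers, and the cells that expressed them here were not identified. In P11 the markers summed to 570 CPM at 10 µM and 557 CPM in basal cultures, while Cd68, Grn and Lipa were each lower at 10 µM. Taken as a percentage of the summed microglia markers, Cd68 at 10 µM against 1 µM differed by −0.23, 0.00 and 0.07 on the log2 scale in P11, P13 and P14. Lipa differed by 0.05, −0.09 and 0.07 and Grn by −0.02, 0.12 and 0.24 on the same measure. Against basal, Cd68 differed by −0.30, 0.09 and −0.10. On this measure the 3 members had no common direction over the P numbers, except that Lipa was lower against basal in all 3 (−0.16, −0.08 and −0.10). Mcoln1 differed by 0.30, 0.76 and 0.80 against 1 µM. The part that cell makeup has in the levels of these members was not tested beyond these values.

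**Figure D4:**
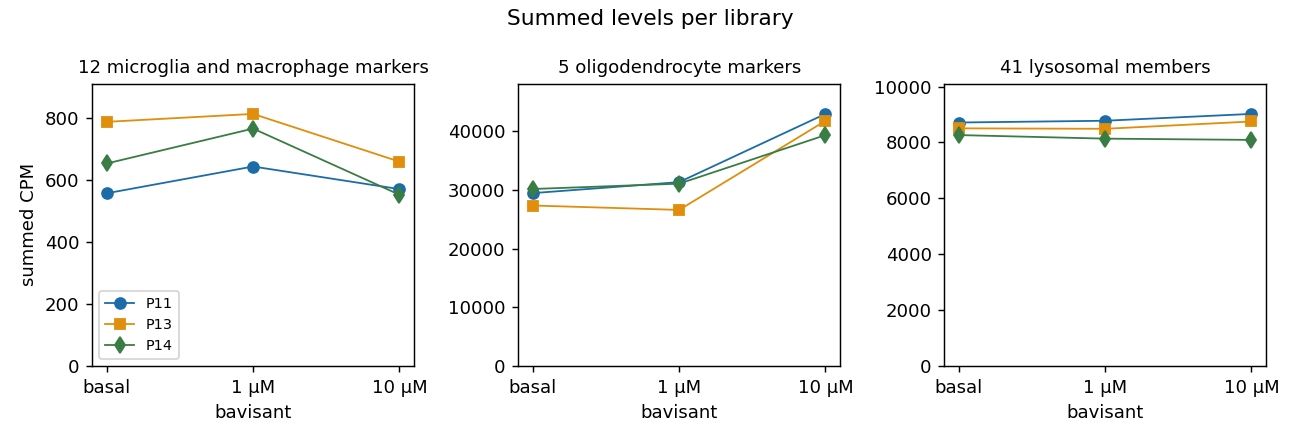
Summed CPM of 12 microglia and macrophage markers, 5 oligodendrocyte markers and the 41 lysosomal members in each library, with 1 line per P number. The microglia sums are lower at 10 µM than at 1 µM in each P number, the oligodendrocyte sums are higher, and the sums of the members lie between 8092 and 9021 CPM at 10 µM and between 8265 and 8714 CPM in basal cultures.

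At 10 µM against basal, all 6 astrocyte markers, all 6 neuronal markers and all 5 tested mural and fibroblast markers had negative values in the fit with the block. Their medians on the log2 scale were −0.38, −0.19 and −0.48. The OPC markers were 2 positive and 2 negative. The 3 tested endothelial markers were 1 positive and 2 negative, and neither of these lists held a call against basal. Of the astrocyte markers, summing to 1910 to 3353 CPM, 2 were called lower at 10 µM against basal, as were 2 of the neuronal markers, which summed to 235 to 547 CPM. The 6 mural and fibroblast markers summed to 150 to 1436 CPM in basal cultures, 188 to 1488 CPM at 1 µM and 117 to 1102 CPM at 10 µM, and 3 of the 5 tested were called lower at 10 µM against 1 µM. Rgs5, a mural marker, was at 0 in 3 libraries, and the endothelial Cldn5 in 3. Their part in the values of the lysosomal genes was not tested.

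In the wider lysosomal system 134 other genes were tested, and 3 (2.24%) were called at 10 µM against basal and 5 (3.73%) against 1 µM in the fit with the block, beside 3.96% and 4.30% of all genes. Of these, 2 and 5 were lower, where 66.7% and 69.7% of all calls were lower. Among 15 other V-ATPase subunits and isoforms, 13 were tested and 6 had positive and 7 negative values at 10 µM against basal. The single call was Tcirg1, the a3 isoform known from osteoclasts and immune cells (log2 fold change −0.43 ± 0.07, edgeR with the block, adjusted p = 0.0236). It had 15.2, 21.3 and 20.6 CPM in basal cultures and 12.5, 15.1 and 14.7 CPM at 10 µM. Taken as a percentage of the summed microglia markers, Tcirg1 differed from basal by −0.32, −0.24 and −0.24 on the log2 scale in P11, P13 and P14, and from 1 µM by −0.23, −0.12 and 0.07. Among the other hydrolases and cofactors, 26 were tested, 5 positive and 21 negative, and Plbd1, a phospholipase B-like protein, was lower (−0.44 ± 0.09, adjusted p = 0.0338 in edgeR). As a percentage of the microglia markers, Plbd1 was below both other groups in all 3 P numbers, with log2 differences of −0.50, −0.08 and −0.29 against basal and −0.32, −0.30 and −0.13 against 1 µM. Against 1 µM, Plbd1, the carboxypeptidase Scpep1 and the acid nuclease Dnase2 were lower. Of 28 other membrane proteins, transporters and channels tested, 21 had positive values against basal (17 with library totals and 12 of 26 on the TPM scale), and Litaf, a late-endosomal membrane protein, was the single call (0.20 ± 0.04, edgeR adjusted p = 0.0388), which was lost with library totals and on the TPM scale. Against 1 µM, Slc15a3, a lysosomal peptide and histidine transporter of immune cells, was the single call and was lower. The 13 tested genes of mannose 6-phosphate and sortilin delivery, 9 positive and 4 negative, held 0 calls. The 20 genes of the TFEB family and its mTORC1 control, 10 positive and 10 negative, also held 0 calls, as did the 34 autophagy genes. Of the autophagy genes, 28 had positive values against basal with TMM, 17 with library totals and 12 on the TPM scale.

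The lysosomal genes varied with the P number as well as with the dose. Differences between P numbers describe these libraries only, since the labels give the numbers no meaning. The largest difference between the 3 P-number means was a median of 0.15 over the members on the log2 scale, beside 0.32 over all genes tested and 0.23 over the 8361 genes with at least as many reads as the scarcest member tested. The largest difference between dose means was a median of 0.10 over the members, beside 0.15 and 0.11. The P number gave the larger difference in 27 of 40 members (67.5%), beside 78.4% of all genes and 80.1% of the abundant ones. The largest such differences belonged to Atp6ap1 (0.64), Tfeb (0.53), Atp6v1f (0.41), Ppt1 (0.40) and Cd63 (0.38). Cd68, Mcoln1 and Grn were among the members with the larger difference over dose, and Lipa had 0.33 over P numbers and 0.31 over dose. The P11 libraries stood apart from the others over the whole data set, with 1439 of 15321 genes differing from the mean of P13 and P14 by more than 1 on the log2 scale. None of the 40 members did so, and the farthest was Tfeb at 0.52.

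**Figure D5:**
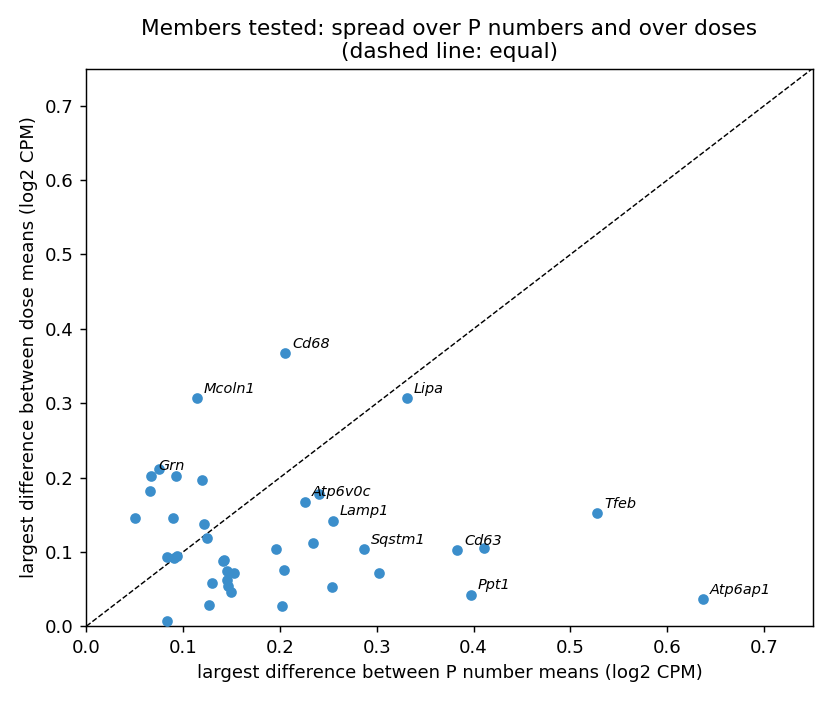
Each point is 1 of the 40 members tested, with the largest difference between P-number means on the horizontal axis and between dose means on the vertical axis, both in log2 CPM; the dashed line marks equality. Atp6ap1 and Tfeb lie far to the right with small differences over dose, whereas Cd68 and Mcoln1 lie above the line.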

How the data were processed

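RNA of 9 cultures was extracted with an RNeasy kit and sequenced as stranded mRNA libraries, per the labels' protocols. The authors deposited 1 table of estimated counts per gene and 1 of TPM. The submitters' processing notes list FastQC, Trimmomatic, DRAGEN, Picard and the rat build rn6. For parameters and annotation, the sources used here give nothing. Of the deposited estimated counts, 92.7% were whole, and the rest were rounded. Totals per library ran from 23919349 to 43059890 reads, which are not independent molecules.

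Genes were kept by edgeR's filterByExpr (minimum count 10, minimum total 15), scaled by TMM and fitted over all 9 libraries by the quasi-likelihood test (R 4.3.3, edgeR 4.0.16). The P number was left out of the first fit and added as a block in the second. The numbers come from the sample titles, and they pair the libraries: deviations from the group means correlated at 0.319 to 0.772 in 9 of 9 same-number pairs, and at −0.708 to 0.193 in 18 others. The common dispersion was 0.0675 without and 0.00696 with the block. Scripts were tested on simulated data. Alternatives used DESeq2 1.42.0, limma 3.58.1 on log2(TPM + 1), other scalings and filters, the compared groups alone, and fits leaving out 1 library.

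The members and lists were chosen with earlier results of these data known. Members are described in full if called with the block in any comparison or among the 5 smallest p-values at 10 µM against basal, and, in each role, if they have the top TPM or the smallest p. From other lists, up to 3 called genes are named. Promoters were taken from RefSeq (GRCr8). No protein sequence was used. One marker gene is not reported here.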

Additional observations from a re-analysis of the deposited data

How the results depend on the processing

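Without the block, 0 members were called under every scaling, filter, group choice and omission run, except that DESeq2 called 1 (Grn) at 10 µM against 1 µM, and the replicate block called 1 and 4 members at 10 µM against basal and against 1 µM. With the block, the count of members called at 10 µM against basal (1) became 5 with library totals, 5 with DESeq2, 4 on log2(TPM + 1), 4 on log2(TPM + 0.1), 0 without the TPM filter, 2 without the count filter, 3 with a mean of at least 100 reads, 0 with the 2 compared groups alone and 0 without the P11 libraries, and ran from 0 to 1 when 1 library was left out. Against 1 µM the count of 4 became 6 with library totals (Cd68, Gaa, Grn, Gusb, Hexa and Lipa), stayed 4 on both TPM scales but with Gaa in place of Mcoln1, and became 1 without the TPM filter (Cd68), 0 with the 2 groups alone and 1 without the P11 libraries (Lipa), and ran from 0 to 3 when 1 library was left out. It was 0 without 1 µM P11, 1 µM P13, 1 µM P14 or 10 µM P14, and 1 without any basal library or 10 µM P13, with Cd68 the gene called. With library totals, 84.3% and 87.4% of all blocked calls at 10 µM against basal and 1 µM were lower, beside 66.7% and 69.7% with TMM.

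The members' median at 10 µM against basal turned negative with library totals (−0.0228, with the block −0.0224) and on the TPM scales (−0.0522, −0.0532 and, unfiltered, −0.0524, with or without the block), and ran from −0.0097 to 0.0629 when 1 library was left out. Against 1 µM it was −0.0385 with library totals (−0.0379 with the block), −0.0540, −0.0543 and −0.0389 on the TPM scales, 0.0302 with DESeq2 (0.0310), 0.0298 without the count filter (0.0309), and −0.0306 to 0.0578 when 1 library was left out. At 1 µM against basal that range was −0.0334 to 0.0302. The median of all genes moved as well. Without the block, at 10 µM against basal it was −0.0097 with TMM, −0.0574 with library totals, and −0.0722, −0.0779 and, unfiltered, −0.0436 on the TPM scales. Against 1 µM it was −0.0024, −0.0595, −0.0673, −0.0725 and −0.0433 in the same order. The members' median lay above that of all genes in each of these except on the unfiltered TPM scale against basal. Signs turned for Atp6ap1 at 10 µM against basal with library totals (−0.0098, with the block −0.0107), on the TPM scales (−0.0269, −0.0270 and −0.0269) and when 1 library was left out (−0.142 to 0.203). They also turned, when 1 library was left out, for Tfeb at 10 µM against basal (−0.0342 to 0.306) and Lipa at 1 µM against basal (−0.0553 to 0.118). The cause was not tested. Atp6v0d2, with at most 4 reads per library, was below what this depth can compare.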
